A study of Monodelphis domestica with 2 samples.

Results

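Described here are the cyclic nucleotide signalling genes across the cell subclasses of the gray short-tailed opossum, in V1, its primary visual cortex. They were taken by symbol, ignoring case: adenylyl cyclases (ADCY and a digit), guanylyl cyclases (GUCY), phosphodiesterases (PDE and a digit), protein kinase A subunits (PRKAC, PRKAR), protein kinase G (PRKG), A-kinase anchoring proteins (AKAP), Epac and related exchange factors (RAPGEF), cyclic nucleotide-gated channels (CNGA, CNGB) and the CREB, CREM and CRTC transcription factors and coactivators. The pattern found 74 of the 30800 genes in the files, of which 11590 carried a symbol. Of the 74, 69 passed the low-count filter and were tested. The other 5, AKAP3, AKAP4, CNGA2, CREB3L4 and PDE6H, had at most 149 UMIs each over all labelled nuclei. A further 13 symbols that match the pattern in RefSeq carried no symbol in the files, among them ADCY6, PDE1A, PDE1B, PDE4A and RAPGEF3, and were not analysed here.

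Cyclic AMP and cyclic GMP are small diffusible messengers inside cells. Adenylyl cyclases make cyclic AMP under the control of G proteins, and some of them also respond to calcium. Guanylyl cyclases make cyclic GMP, the soluble ones in response to nitric oxide, and phosphodiesterases break both messengers down, each enzyme with its own preference. The messengers act on protein kinases A and G, on exchange factors for Rap GTPases and on ion channels, and protein kinase A phosphorylates CREB, which drives activity-dependent transcription in neurons. In cortex the pathway is known for its part in synaptic plasticity and in responses to neuromodulators.

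Nuclei came from 2 adult males that received no treatment, animal 1 aged 1.5 years and animal 2 aged 2 years, so age and animal cannot be told apart. The labels add that the replicates were handled side by side by separate experimenters, so experimenter may differ between the animals as well. The V1 tissue of both hemispheres was pooled per animal, nuclei were sorted by their DNA stain, and each suspension gave 2 libraries, which count together as 1 replicate. The 32764 labelled nuclei fell into 18 subclasses named by the authors. These were 8 glutamatergic (IT_A, IT_B, IT_C and IT_D, which project within the cortex, L5PT, L5NP, L6CT and L6b), 5 GABAergic (Pvalb, Sst, Vip, Lamp5 and Frem1) and 5 non-neuronal (Astro, astrocytes; OD, oligodendrocytes; OPC, their precursors; Micro, microglia; Endo, endothelial cells). The authors drew these labels from the same counts, so that differences between subclasses are not independent of how the nuclei were grouped.

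Library totals ran from 55625042 to 69706055 UMIs (barcoded molecules of RNA, counted once each). Of 28 cell type markers with a symbol, 27 were highest in their own class or subclass in both animals, and FREM1 was highest in Lamp5. No more than 30 cell barcodes were shared by any pair of libraries. TBR1, a transcription factor that marks glutamatergic neurons, was also found in non-neuronal nuclei, where droplet data can hold free RNA, at a mean of 6.37 and 7.04 CPM over those subclasses against 94.7 and 87.7 CPM over the glutamatergic ones. The Endo sums were shallow, at 48514 and 57864 UMIs from 29 and 36 nuclei. Levels below are UMIs summed per animal and subclass, given in CPM (UMIs of the gene per 1000000 UMIs of that sum), with animal 1 first and animal 2 after it. A gene's highest and lowest subclasses are those by the mean of both animals, and "by mean" marks those that differed between the animals. On that scale 1 UMI stood for 20.6 and 17.3 CPM in Endo. Levels are not corrected for gene length, so they are compared between subclasses and not between genes.

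The members were spread over all classes of cells. Of the 55 members with at least 20 CPM in their highest subclass in both animals, 22 were highest in a neuronal subclass, where 36.8% of the 10412 genes with such levels were, and 33 in a non-neuronal subclass, most often Micro (13) and Endo (8), which was the shallowest. Shares over all genes were not taken for single subclasses. The highest subclass was the same in both animals for 37 of the 55 (62.9% of those genes). For 30 of the 55 the values of the highest subclass did not overlap with those of the next (57.8% of those genes). The count by class depended on the scale, since a non-neuronal nucleus held a median of 2119 ± 10.3 UMIs (SD, n = 2 animals) against 8085 ± 42.4 in glutamatergic and 6295 ± 486 in GABAergic nuclei. In UMIs per nucleus, 48 of the 55 were highest in a neuronal subclass, as were 81.7% of the 10412 genes.

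**Figure D1:**
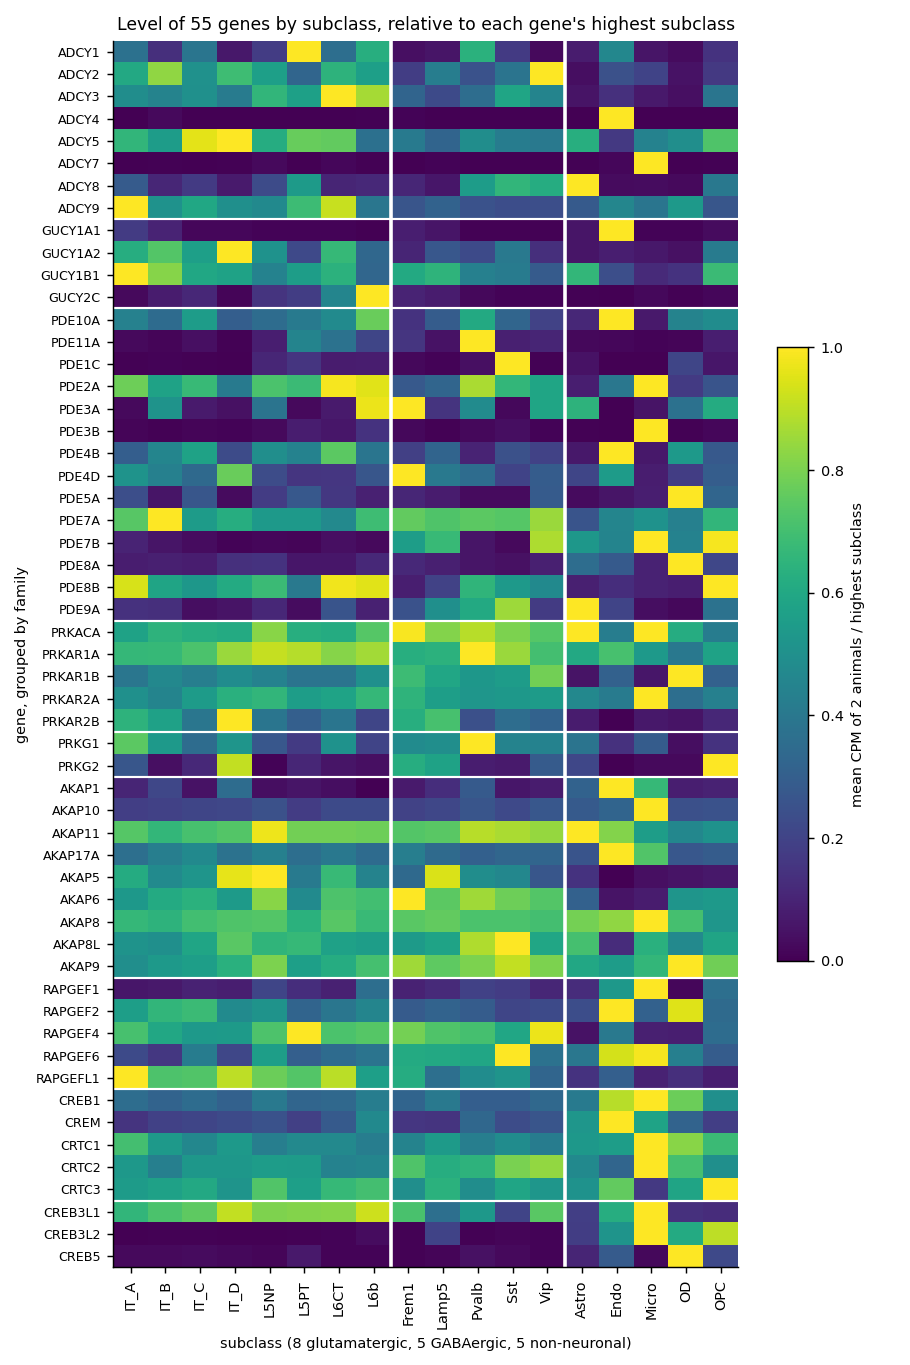
Mean CPM of the 2 animals for the 55 members with at least 20 CPM in their highest subclass in both animals, divided by the gene's highest subclass mean (color scale from 0 to 1). Columns are the 18 subclasses, with white lines between the glutamatergic, GABAergic and non-neuronal classes, and rows are grouped by gene family; 22 genes peak in a neuronal column and 33 in a non-neuronal column in CPM, while 48 of the 55 peak in a neuronal subclass in UMIs per nucleus.

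Glutamatergic and GABAergic neurons were compared as the mean of 8 against the mean of 5 subclasses. Of the 69 members tested, 45 differed at an adjusted p under 0.05, where 39.9% of all 17227 genes tested and 44.6% of those with a symbol did. Higher in glutamatergic neurons were 25 members (20.5% of all genes, 22.6% of those with a symbol) and higher in GABAergic neurons 20 (19.4% and 22.1%). The median log2 fold change was 0.02 over the members and -0.01 over all genes. The split depended on scaling: scaled by the number of nuclei, 38 members were higher in glutamatergic (43.5% of all genes) and 8 in GABAergic neurons (8.48%), where the median of all genes moved to 0.36. Of the cyclases, 6 of 9 adenylyl cyclases and 3 of 5 guanylyl cyclases were higher in glutamatergic neurons, and 1 and 0 were higher in GABAergic neurons (7 and 3 against 0 and 0 when scaled by number of nuclei, where all genes moved the same way). The calls of ADCY7 and GUCY2C were lost with at most 50 nuclei per animal and subclass (log2 fold changes 0.74 and 1.28). That of ADCY1 was lost with counts summed per class. The 20 phosphodiesterases tested divided into 8 higher and 8 lower in glutamatergic neurons (9 and 4 when scaled by number of nuclei), while both protein kinase G genes were higher in GABAergic neurons (1 of the 2 when scaled by number of nuclei).

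Neuronal subclasses were compared with non-neuronal ones as the mean of 13 against the mean of 5. The test called 45 of the 69 members, against 44.7% of all genes and 50.6% of those with a symbol. Higher in neurons were 32 members (30.2% of all genes, 32.2% of those with a symbol), and 13 were higher in non-neuronal cells (14.6% and 18.5%). All genes together were shifted toward neurons, with a median log2 fold change of 0.44 against 0.73 for the members. Without the Endo sums these medians were 0.07 and 0.37, and scaled by number of nuclei they were 1.98 and 2.35. In that last scaling 58 members were higher in neurons (74.6% of all genes) and 4 higher in non-neuronal cells (2.95%). Log2 fold changes of this comparison are therefore given as fitted and less the median of all genes, and 43 of the 45 kept their direction after this subtraction. CRTC3 and PRKAR2A, fitted at 0.39 and 0.43, came out at -0.05 and -0.01, and CRTC3 did not pass when scaled by total UMIs (adjusted p = 0.121) or with at most 50 nuclei per animal and subclass (adjusted p = 0.209).

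**Figure D2:**
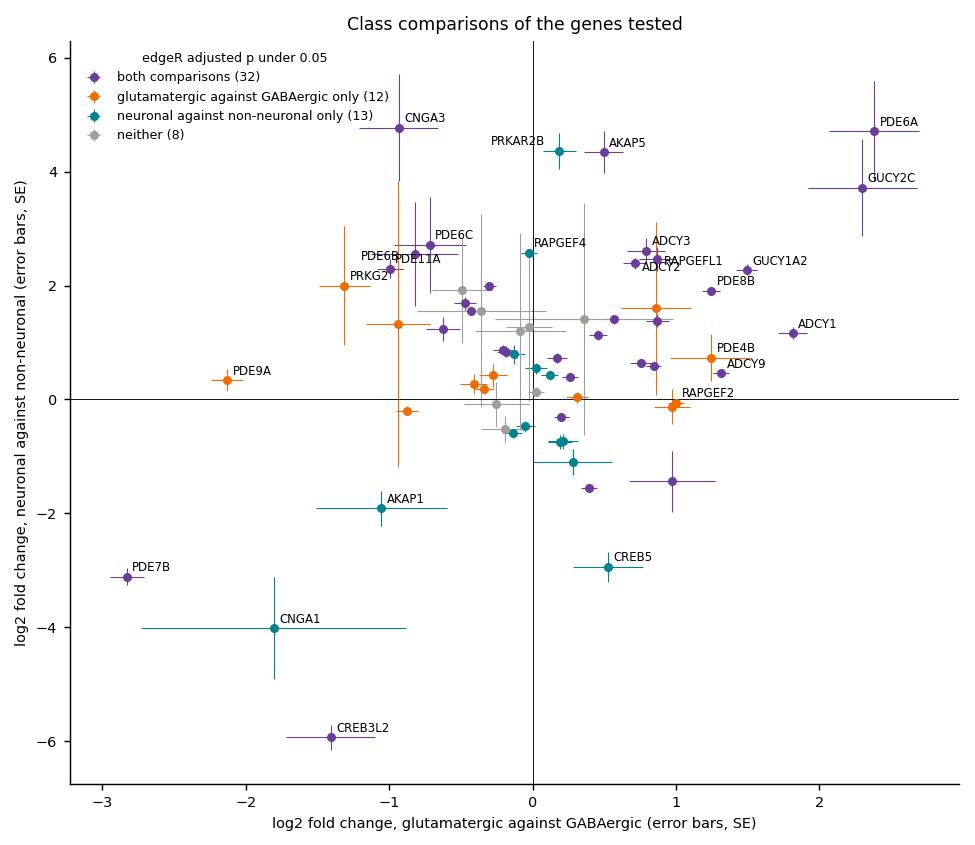
Log2 fold changes of 65 members in the 2 class comparisons as fitted, glutamatergic against GABAergic on the horizontal axis and neuronal against non-neuronal on the vertical axis, with SEs as error bars and colors for the edgeR call; 4 members with an SE of 3 or more are left out. Both comparisons called 32 of the 65, and PDE7B and CREB3L2 stand apart at the lower left, while the vertical axis as a whole is shifted upward by 0.44, the median of all genes (1.98 when scaled by number of nuclei).

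Within classes, members also differed between subclasses. Among the 8 glutamatergic subclasses 43 of 69 members differed (37.7% of all genes, 39.7% of those with a symbol), among the 5 GABAergic subclasses 41 (32.1% and 35.8%) and among the 5 non-neuronal subclasses 53 (61.4% and 68.3%). All 9 adenylyl cyclases differed among glutamatergic and among non-neuronal subclasses, and 5 of 9 among GABAergic subclasses. With at most 50 nuclei per animal and subclass, ADCY3, ADCY4 and ADCY7 did not pass among glutamatergic subclasses (adjusted p = 0.0593, 0.115 and 0.722), nor ADCY3 and ADCY9 among non-neuronal ones (adjusted p = 0.508 and 0.0679), nor ADCY3 among GABAergic ones (adjusted p = 0.0504). Of the 6 protein kinase A subunits, 1 passed the test among glutamatergic subclasses, PRKAR2B. With the animal as a block, PRKAR1A, PRKAR1B and PRKAR2A passed there as well (adjusted p = 0.00187, 0.00813 and 0.0395).

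Among the cyclases, ADCY1 (ENSMODG00000010195), a neuronal cyclase stimulated by calcium and calmodulin, was highest in L5PT, Pvalb and L6b. Its level was 710.2 and 686 CPM in L5PT, 431 and 461 CPM in Pvalb and 365 and 508 CPM in L6b. It was 28.2 and 63.4 CPM in IT_D, 24.1 and 31.1 CPM in Frem1 and 19.7 and 14.9 CPM in Vip, so the animals' values of the high and the low subclasses were far from overlapping. ADCY1 was higher in glutamatergic than in GABAergic neurons (log2 fold change 1.81, SE 0.10, adjusted p = 3.7e-15). That call depended on the weighting of subclasses. With counts summed over each class before the test, so that numerous subclasses weigh more, the log2 fold change was 0.077 and did not pass.

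ADCY8, the other calcium-stimulated cyclase of the brain, had another distribution. It was highest in astrocytes, at 594 and 630.2 CPM, ahead of Sst at 409.8 and 397 CPM, Vip at 385 and 374 CPM and Pvalb at 369 and 309.6 CPM. Among glutamatergic subclasses it was highest in L5PT, at 299.8 and 367 CPM, and lowest by mean in IT_D, at 47.5 and 41.7 CPM. Lamp5, at 46.03 and 29.5 CPM, and Frem1, at 70.4 and 62.2 CPM, lay below the other 3 GABAergic subclasses without overlap. Over the class means ADCY8 was higher in GABAergic neurons (log2 fold change -0.62, SE 0.12, adjusted p = 6.94e-05), a difference that did not pass when scaled by number of nuclei (adjusted p = 0.108).

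ADCY2, which G protein beta-gamma subunits stimulate, had the most UMIs of the members. It was highest in Vip, at 2295 and 2005 CPM, followed by IT_B at 1835 and 1743 CPM, and lowest in astrocytes at 72.4 and 90.7 CPM and oligodendrocytes at 74.9 and 136 CPM. The other GABAergic subclasses lay between 339 and 441 CPM in Frem1 and 977 and 837 CPM in Lamp5. Its astrocyte level was 5.87% and 6.92% of its glutamatergic mean. ADCY2 was higher in glutamatergic than in GABAergic neurons (log2 fold change 0.71, SE 0.080, adjusted p = 1.39e-08) and in neurons than in non-neuronal cells (log2 fold change 2.39, 1.95 less the median, SE 0.091, adjusted p = 2.04e-19).

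ADCY9, a widely expressed cyclase, separated the neuronal classes without overlap. Its glutamatergic values ran from 241 to 707 CPM and its GABAergic values from 151 to 226 CPM (log2 fold change 1.31, SE 0.056, adjusted p = 7.39e-18). IT_A, at 707 and 687 CPM, and L6CT, at 620.1 and 659 CPM, were the highest subclasses. Among GABAergic subclasses ADCY9 did not pass the test (adjusted p = 0.0991), and passed with the animal as a block (adjusted p = 0.0284). ADCY5, the main cyclase of the striatum, was lowest among neurons in Lamp5, at 131 and 136 CPM, and highest by mean in IT_D, at 452 and 376 CPM, which overlapped with IT_C at 396 and 399 CPM. Its non-neuronal values ran from 34.6 to 309.6 CPM, lowest in Endo. It was higher in glutamatergic neurons (log2 fold change 0.84, SE 0.049, adjusted p = 1.03e-14), while its neuronal excess over non-neuronal cells was lost without the Endo sums (adjusted p = 0.172) and with counts summed per class (adjusted p = 0.325). ADCY3, the cyclase of olfactory signalling and of primary cilia, was highest in L6CT, at 88.7 and 61.7 CPM, and higher in glutamatergic neurons as well (log2 fold change 0.79, SE 0.13, adjusted p = 1.5e-05).

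Each of the remaining adenylyl cyclases was highest in a non-neuronal subclass. ADCY7 was 499.7 and 505 CPM in microglia, 38.9 and 38.3 times its level in L5NP, the next subclass by mean. ADCY4 was 206 and 121 CPM in Endo, from 10 and 7 UMIs, and at most 5.27 CPM elsewhere. ADCY10, the soluble bicarbonate-sensitive cyclase, was 21.1 and 13.8 CPM in astrocytes and at most 10.2 CPM elsewhere, where IT_D came next at 7.04 and 10.2 CPM. ADCY7 was lower in neurons than in non-neuronal cells (log2 fold change -1.44, -1.88 less the median, SE 0.53, adjusted p = 0.0286), but its log2 fold change was 0.18 when scaled by number of nuclei, and with at most 50 nuclei per animal and subclass a fitted -1.83 did not pass (adjusted p = 1).

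The soluble guanylyl cyclase is a dimer of an alpha and a beta subunit. The alpha subunit GUCY1A2 was highest in IT_D, at 864 and 923 CPM, and lowest among glutamatergic subclasses in L5PT, at 241 and 156 CPM. OPC carried 394 and 349 CPM, while the other non-neuronal subclasses stayed at or below 82.5 CPM. GUCY1A2 was higher in glutamatergic than in GABAergic neurons (log2 fold change 1.49, SE 0.075, adjusted p = 2.42e-16). The beta subunit GUCY1B1 was highest in IT_A, at 232 and 228 CPM, and lowest among neurons in Vip, at 66.3 and 66.1 CPM (log2 fold change 0.45, SE 0.063, adjusted p = 6.96e-07 for glutamatergic against GABAergic).

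The other alpha subunit, GUCY1A1, was restricted to a few subclasses. It was 132 and 98.5 CPM in IT_A, 79.4 and 52.2 CPM in IT_B, 50.8 and 62.2 CPM in Frem1 and 33.1 and 43.4 CPM in Lamp5. The other 9 neuronal subclasses stayed at or below 15.8 CPM, so they did not overlap with these 4. Among non-neuronal subclasses Endo stood at 721 and 605 CPM and Astro at 34.2 and 39.3 CPM. GUCY1A1 differed among glutamatergic (adjusted p = 5.69e-17) and among GABAergic subclasses (adjusted p = 2.01e-12). Its excess in non-neuronal cells (log2 fold change -1.10, -1.54 less the median, SE 0.22, adjusted p = 0.000133) came with the Endo sums: without them the log2 fold change was -0.09 and the adjusted p 0.838, and the sign turned with equal nuclei, with sums per class and when scaled by number of nuclei.

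Of the membrane guanylyl cyclases, GUCY2C, best known as the receptor for guanylin peptides in the gut, was found in layer 6 neurons. Its level was 49.02 and 35.7 CPM in L6b and 23.1 and 15.4 CPM in L6CT, and the highest value in any other subclass was 9.57 CPM, in L5NP of animal 1. The L6b values rested on 27 and 18 UMIs and those of L6CT on 345 and 241 UMIs. It differed among glutamatergic subclasses (adjusted p = 1.19e-09) and was higher in glutamatergic than in GABAergic neurons (log2 fold change 2.30, SE 0.38, adjusted p = 1.32e-05), a call lost with at most 50 nuclei per animal and subclass (adjusted p = 1). GUCY2D, the retinal guanylyl cyclase, had 104 UMIs in all, with 6.20 and 4.57 CPM in Sst and 0 UMIs in every non-neuronal subclass.

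**Figure D3:**
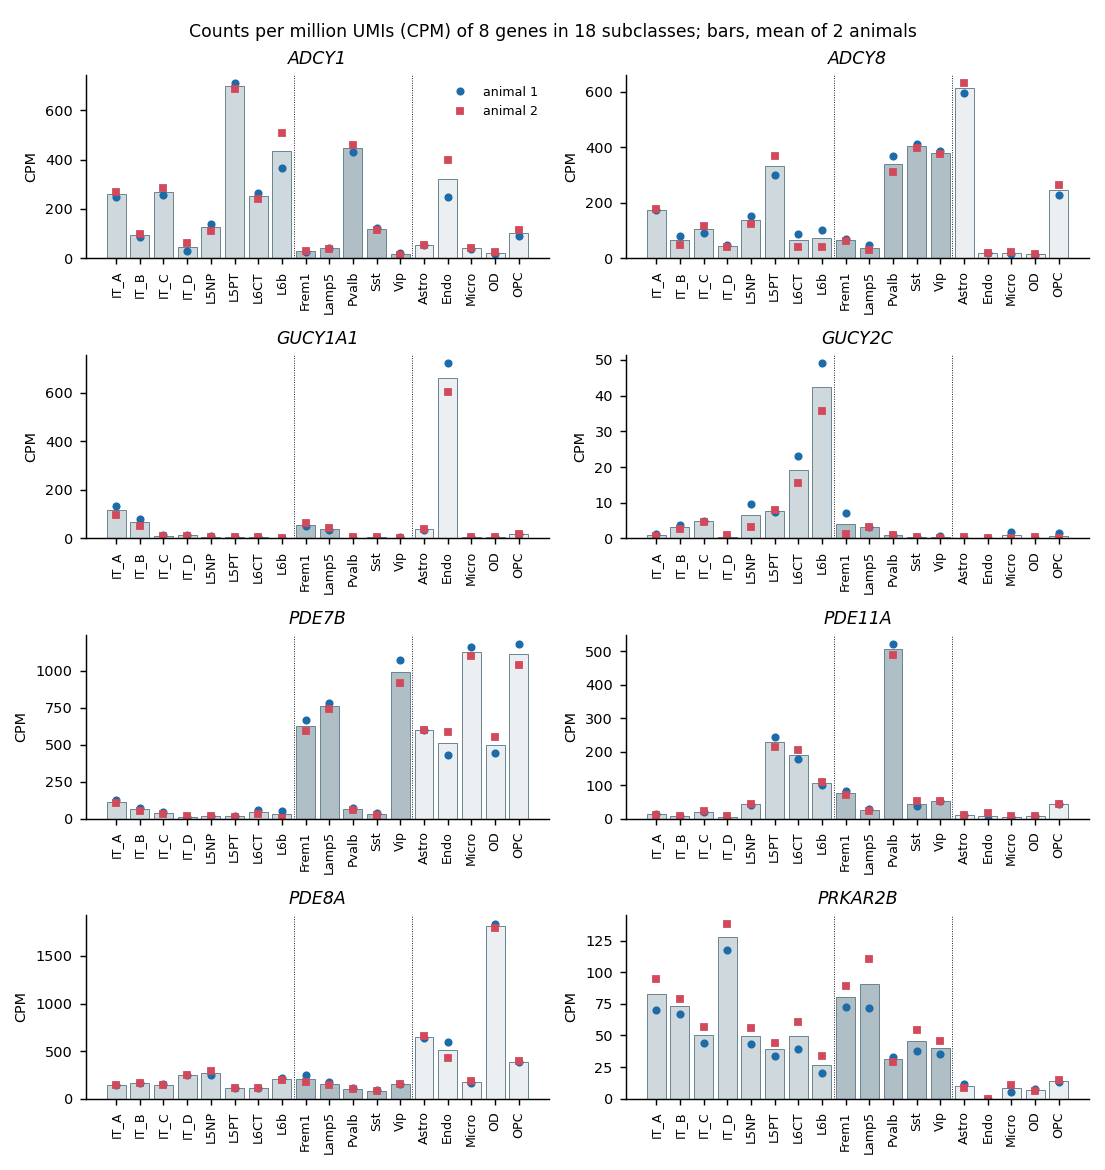
CPM of ADCY1, ADCY8, GUCY1A1, GUCY2C, PDE7B, PDE11A, PDE8A and PRKAR2B in the 18 subclasses. Circles are animal 1, squares animal 2 and bars their mean, dotted lines part the glutamatergic, GABAergic and non-neuronal classes, and the vertical scale differs between genes; the points of both animals lie apart from all other subclasses for PDE11A in Pvalb, at 523 and 489.5 CPM, and for PDE8A in OD, at 1839 and 1789 CPM.

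Among the phosphodiesterases, PDE7B (ENSMODG00000017463), which degrades cyclic AMP, showed the largest difference between the neuronal classes. It was 1071 and 916 CPM in Vip, 784 and 739 CPM in Lamp5 and 666 and 594 CPM in Frem1. In Pvalb and Sst it was 73.9 and 54.7 CPM and 37.5 and 22.8 CPM, and in the glutamatergic subclasses it ran from 5.95 to 124 CPM. The 3 high GABAergic subclasses thus overlapped with no other neuronal subclass, while Pvalb and Sst lay within the glutamatergic range. All 5 non-neuronal subclasses were high too, from 433 to 1185 CPM. PDE7B was higher in GABAergic than in glutamatergic neurons (log2 fold change -2.83, SE 0.12, adjusted p = 2.72e-18) and lower in neurons than in non-neuronal cells (log2 fold change -3.11, -3.55 less the median, SE 0.15, adjusted p = 3.85e-17).

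PDE11A, which degrades both messengers, was highest in Pvalb, at 523 and 489.5 CPM, 2.14 and 2.30 times L5PT at 245 and 213 CPM. L6CT followed at 177 and 204 CPM and L6b at 102 and 109 CPM, whereas IT_A, IT_B, IT_C and IT_D were between 0 and 21.4 CPM. L5PT, L6CT and L6b did not overlap with the IT subclasses (adjusted p = 2.06e-19 among glutamatergic subclasses). PDE9A, which is selective for cyclic GMP, was high in Sst at 139 and 164 CPM, Pvalb at 102 and 113 CPM and Lamp5 at 102 and 74.4 CPM, and in astrocytes at 160.3 and 194 CPM. Glutamatergic values of PDE9A ran from 5.23 to 48.1 CPM, below those of these 3 GABAergic subclasses (log2 fold change -2.13, SE 0.11, adjusted p = 7.21e-16). PDE1C, a calcium and calmodulin-dependent enzyme, was 52.1 and 44.9 CPM in Sst and at most 12.6 CPM in any other subclass.

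PDE10A, which degrades both messengers and is known from the striatum, was highest among neurons in L6b, at 1641 and 1630.3 CPM, then in Pvalb at 1205 and 1365 CPM and IT_C at 1145 and 1203 CPM. Its lowest neuronal level was 301 and 318 CPM, in Frem1. The highest level of all was 2412 and 1832 CPM in Endo. PDE4D, specific for cyclic AMP, was instead highest in Frem1, at 1675 and 1718 CPM, followed by IT_D at 1376 and 1239 CPM. L5PT and L6CT were lowest among neurons for PDE4D, at 273 and 254 CPM and 276 and 266 CPM. PDE8B, another cyclic AMP-specific enzyme, was lowest of all neuronal subclasses in Frem1, at 72.2 and 79.5 CPM, and reached 917 and 814 CPM in IT_A and 808 and 996 CPM in L6CT (log2 fold change 1.24, SE 0.060, adjusted p = 1.19e-16 for glutamatergic against GABAergic).

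PDE3A, which cyclic GMP inhibits, was 116 and 114 CPM in Frem1 and 139.8 and 83.3 CPM in L6b and near 0 in IT_A, Sst and L5PT, at 3.29 and 2.58, 3.10 and 1.90 and 3.33 and 2.58 CPM. The paralog PDE3B was a microglial gene by level, at 334 and 343 CPM against 50.8 and 47.6 CPM in L6b, the next subclass. PDE8A was highest in oligodendrocytes, at 1839 and 1789 CPM, 2.89 and 2.73 times the astrocyte level. PDE5A, which is specific for cyclic GMP, was also highest in oligodendrocytes, at 186 and 179 CPM, against 64.00 and 55.4 CPM in OPC. PDE8A was lower in neurons than in non-neuronal cells (log2 fold change -1.55, -1.98 less the median, SE 0.062, adjusted p = 7.87e-19), though its fitted log2 fold change was 0.09 when scaled by number of nuclei. PDE4B, a cyclic AMP-specific enzyme of brain and immune cells, was higher in glutamatergic than in GABAergic neurons (log2 fold change 1.25, SE 0.29, adjusted p = 0.000711), at low levels from 1.82 to 34.7 CPM in glutamatergic and 3.30 to 17.1 CPM in GABAergic values, which overlapped. L6CT carried the most among neurons, 22.1 and 34.7 CPM, and Pvalb the least by mean, 3.30 and 4.17 CPM. Among glutamatergic subclasses PDE4B passed with the animal as a block (adjusted p = 1.14e-06) and not without (adjusted p = 0.193).

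Protein kinase A consists of catalytic subunits and of regulatory subunits that bind cyclic AMP. Of the regulatory subunits, PRKAR2B (ENSMODG00000016378) was neuronal, with values from 19.97 to 138 CPM in neurons and from 0 to 14.9 CPM in non-neuronal cells, without overlap. It was highest in IT_D, at 118 and 138 CPM, then in Lamp5 at 71.9 and 110.1 CPM, and lowest among neurons by mean in L6b, at 19.97 and 33.7 CPM. It was higher in neurons than in non-neuronal cells (log2 fold change 4.37, 3.93 less the median, SE 0.32, adjusted p = 1.65e-12), with a log2 fold change of 2.61 without the Endo sums, where it had 0 UMIs. It did not pass between glutamatergic and GABAergic neurons (adjusted p = 0.224), but was higher in glutamatergic neurons when scaled by number of nuclei (log2 fold change 0.55, adjusted p = 1.15e-05).

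PRKAR1B, the brain-enriched type I subunit, was highest in oligodendrocytes, at 1548 and 1551 CPM, and lowest in astrocytes, at 88.4 and 79.7 CPM, and microglia, at 96.2 and 95.7 CPM. Among neurons it was lowest by mean in L5PT, at 662 and 525 CPM, and highest in Vip, at 1250.0 and 1192 CPM, and was higher in GABAergic neurons (log2 fold change -0.43, SE 0.060, adjusted p = 7.46e-07), a difference that was lost when scaled by number of nuclei (log2 fold change -0.055, adjusted p = 0.684). PRKAR1A and PRKAR2A are expressed in most tissues. Neuronal values of PRKAR1A ran from 104 to 188 CPM, with 157 and 188 CPM in Pvalb, the highest subclass, and 111 and 106 CPM in Frem1, the lowest neuronal subclass by mean. PRKAR2A ran from 109 to 174 CPM in neurons, with PRKAR2A highest in microglia at 272 and 231 CPM. Neuronal values of the catalytic subunit PRKACA ran from 12.3 to 24.97 CPM, with 24.97 and 23.1 CPM in Frem1, the highest neuronal subclass, and 15.02 and 12.98 CPM in IT_A, the lowest by mean. It was lower in glutamatergic than in GABAergic neurons (log2 fold change -0.27, SE 0.10, adjusted p = 0.0261), with a log2 fold change of 0.096 when scaled by number of nuclei. That call was also lost with at most 50 nuclei per animal and subclass (adjusted p = 0.828), with counts summed per class (adjusted p = 0.0526) and without the low-count filter (log2 fold change -0.24). The other catalytic subunit gene, PRKACB, had 93 UMIs in all. The authors report that many genes of the opossum annotation lack introns and untranslated ends, and whether this lowered the count of PRKACB was not tested. PRKACB was 9.43 and 12.8 CPM in microglia, from 5 and 8 UMIs, against 1.64 and 2.36 CPM in OD, the next subclass. PRKACB did not pass between neurons and non-neuronal cells (adjusted p = 1), and was lower in neurons without the Endo sums (log2 fold change -2.96, adjusted p = 0.00168).

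Protein kinase G I, the product of PRKG1, was highest in Pvalb, at 381 and 385 CPM, and lowest in oligodendrocytes, at 13.1 and 15.4 CPM. Without the small type Pvalb_5, left out after its values were seen, Pvalb stood at 271 and 256 CPM, under IT_A at 310.3 and 262 CPM. L5PT was lowest among neurons at 76.2 and 52.5 CPM. PRKG1 was higher in GABAergic than in glutamatergic neurons (log2 fold change -0.47, SE 0.077, adjusted p = 9.47e-06), a call lost when scaled by number of nuclei (adjusted p = 0.444) and with counts summed per class (adjusted p = 0.0962). PRKG2, the membrane-bound kinase, had a different set of subclasses, with 95.3 and 80.2 CPM in OPC, 66.9 and 92.5 CPM in IT_D, 48.2 and 61.1 CPM in Frem1 and 47.6 and 53.5 CPM in Lamp5. It was also higher in GABAergic neurons (log2 fold change -1.31, SE 0.18, adjusted p = 4.05e-07), but with counts summed per class its log2 fold change was 0.22. IT_A, the subclass with the most nuclei, carried 22.9 and 23.9 CPM of PRKG2 and L5NP 0.598 and 0.943 CPM.

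Anchoring proteins hold protein kinase A near its substrates. AKAP6, which is perinuclear in excitable cells, was highest in Frem1, at 1324 and 1276 CPM. It was lower in microglia, at 88.6 and 112 CPM, than in any neuronal subclass. Over the class means AKAP6 was higher in neurons than in non-neuronal cells (log2 fold change 2.00, 1.56 less the median, SE 0.064, adjusted p = 3.9e-21). Its non-neuronal values reached 719 CPM, which overlapped with the neuronal range of 593 to 1324 CPM. OD stood at 74.3% and 92.2% of its glutamatergic mean and OPC at 80.7% and 91.7%. AKAP5, a postsynaptic anchor, ran from 5.20 to 26.4 CPM in neurons and from 0 to 4.45 CPM in non-neuronal cells, which did not overlap (log2 fold change 4.34, 3.91 less the median, SE 0.37, adjusted p = 4.27e-11). L5NP carried the most by mean, 19.7 and 26.4 CPM. In Endo AKAP5 had 0 UMIs, and without the Endo sums its log2 fold change was 3.11. AKAP10 was highest in microglia, at 224 and 255 CPM, and ran from 42.5 to 72.6 CPM in neurons. AKAP1, the mitochondrial anchor, was lower in neurons (log2 fold change -1.91, -2.35 less the median, SE 0.31, adjusted p = 7.77e-06), with 24.5 and 23.9 CPM in microglia. This call was lost when scaled by number of nuclei (log2 fold change -0.34, adjusted p = 0.643) and with counts summed per class (adjusted p = 0.116). Of the 9 anchoring proteins tested, 3 differed among glutamatergic (37.7% of all genes), 4 among GABAergic (32.1%) and 8 among non-neuronal subclasses (61.4%). With the animal as a block, AKAP17A, AKAP8L and AKAP9 also passed among glutamatergic (adjusted p = 0.0361, 0.0051 and 0.0125) and AKAP10 among GABAergic subclasses (adjusted p = 0.0367). With at most 50 nuclei per animal and subclass, AKAP5 and AKAP6 were lost and AKAP9 and AKAP17A gained among glutamatergic subclasses. AKAP1, AKAP5, AKAP6 and AKAP8L were lost among GABAergic and AKAP1, AKAP8 and AKAP11 among non-neuronal ones.

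RAPGEF4, or Epac2, an exchange factor that cyclic AMP opens directly, was higher in neurons. Its neuronal values ran from 289 to 593 CPM and non-neuronal values from 25.4 to 259 CPM, without overlap (log2 fold change 2.58, 2.14 less the median, SE 0.073, adjusted p = 2.79e-22). Among non-neuronal subclasses Astro was lowest, at 25.4 and 31.2 CPM, which is 6.28% and 7.93% of its glutamatergic mean. It did not pass between glutamatergic and GABAergic neurons (adjusted p = 0.805), but was higher in glutamatergic neurons when scaled by number of nuclei (log2 fold change 0.34, adjusted p = 0.000489). RAPGEF2, which acts on Rap GTPases, was higher in glutamatergic neurons (log2 fold change 1.00, SE 0.057, adjusted p = 4.87e-15), and RAPGEF6 was higher in GABAergic neurons (log2 fold change -0.87, SE 0.075, adjusted p = 5.91e-11). RAPGEF2 was 715 and 658 CPM in IT_C and 218 and 204 CPM in Sst, the highest by mean and the lowest of the neuronal subclasses. RAPGEF6 was 442 and 469.9 CPM in Sst, against 157 and 186 CPM in Vip and 69.1 and 80.3 CPM in IT_B. RAPGEF1 was highest in microglia, at 690.2 and 749 CPM, lowest in oligodendrocytes, at 13.1 and 12.8 CPM, and among neurons highest in L6b, at 276 and 244 CPM. RAPGEFL1 was higher in neurons (log2 fold change 2.46, 2.02 less the median, SE 0.21, adjusted p = 4.43e-11), with 35.8 and 31.96 CPM in IT_A.

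Cyclic nucleotide-gated channels, which carry the light response in photoreceptors and the odor response in olfactory neurons, were at low levels. CNGA3 had the most UMIs of them, 1208, with 16.6 and 8.72 CPM in Pvalb and 16.9 and 6.92 CPM in Frem1. In each of the 10 subclasses with at least 20 UMIs of CNGA3 it was lower in animal 2 than in animal 1. It was higher in GABAergic neurons (log2 fold change -0.93, SE 0.27, adjusted p = 0.00726), a difference that did not pass when scaled by number of nuclei (adjusted p = 0.11).

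Among the transcription factors and coactivators, CREB1 ran from 29.97 to 52.8 CPM in neurons and was 94.3 and 134 CPM in microglia. CREM, whose product can act as an inducible repressor, ran from 11.2 to 39.9 CPM in neurons, where L6b was highest, at 39.9 and 31.7 CPM. Non-neuronal values of CREM reached 82.5 CPM. They were highest in Endo, at 1.51 and 2.06 times the level in microglia, the next subclass by mean. CREB1 and CREM were both lower in neurons than in non-neuronal cells in CPM (log2 fold change -0.75, -1.19 less the median, SE 0.12, adjusted p = 3.49e-06 for CREB1 and log2 fold change -0.73, -1.17 less the median, SE 0.13, adjusted p = 2.88e-05 for CREM), and both fitted differences had the opposite sign, at 0.88 and 0.89, when scaled by number of nuclei. The CREM difference did not pass with at most 50 nuclei per animal and subclass (adjusted p = 0.582). CRTC1, a CREB coactivator that calcium and cyclic AMP send to the nucleus, was 173 and 173 CPM in IT_A, above the other 12 neuronal subclasses, and 245 and 249 CPM in microglia. CRTC1 was higher in glutamatergic than GABAergic neurons (log2 fold change 0.20, SE 0.053, adjusted p = 0.0029). That call was lost when scaled by total UMIs (log2 fold change 0.10, adjusted p = 0.116). It was also lost with at most 50 nuclei per animal and subclass, at an unchanged log2 fold change of 0.20 (adjusted p = 0.197). CRTC3 was also higher in glutamatergic neurons (log2 fold change 0.26, SE 0.057, adjusted p = 0.000355), with 143 and 154 CPM in L5NP and 104 and 95.7 CPM in Pvalb, the highest and lowest neuronal subclasses by mean. CRTC2 was higher in GABAergic neurons (log2 fold change -0.41, SE 0.10, adjusted p = 0.000852), with 54.5 and 77.98 CPM in Vip and 33.4 and 34.8 CPM in IT_B, the highest and lowest neuronal subclasses by mean. This CRTC2 difference was lost when scaled by number of nuclei (log2 fold change -0.045, adjusted p = 0.763) and with counts summed per class (adjusted p = 0.155). CRTC1 was lower in neurons than in non-neuronal cells, with a log2 fold change of -0.31, -0.74 less the median, and a fitted 1.33 when scaled by number of nuclei.

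Of the 4 CREB3 and CREB5 relatives tested, 1 was higher in neurons (30.2% of all genes) and 2 were higher in non-neuronal cells (14.6%). CREB3L2, a factor of the secretory pathway, was 223 and 244 CPM in microglia, 209 and 212 CPM in OPC and 148 and 137 CPM in oligodendrocytes. Among neurons Lamp5 carried 42.8 and 51.2 CPM, and the other 12 neuronal subclasses stayed at or below 7.93 CPM. Its difference between neurons and non-neuronal cells was the most negative of all members tested (log2 fold change -5.93, -6.37 less the median, SE 0.22, adjusted p = 7.62e-20). CREB5 was 689 and 566 CPM in oligodendrocytes and highest among neurons by mean in L5PT, at 30.7 and 55.9 CPM (log2 fold change -2.94, -3.38 less the median, SE 0.26, adjusted p = 6.03e-11). CREB3L1 was instead higher in neurons (log2 fold change 1.39, 0.95 less the median, SE 0.11, adjusted p = 4.45e-12), with Sst the lowest neuronal subclass at 18.6 and 17.9 CPM and microglia at 94.3 and 82.9 CPM.

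The authors divided most subclasses further into types. In the 10 subclasses with at least 2 types of at least 50 nuclei in each animal, 189 pairs of a member and a subclass had the same highest and lowest type in both animals. Of these 189, 22 differed by at least 2-fold in both animals (14.0% of such pairs over all genes), 9 of 16 in Pvalb (55.7%) and 5 of 17 in IT_A (31.3%), close to or under the shares over all genes. The types were named from these counts as well, so their values are described without a test.

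Among Pvalb types, 2-fold differences were about as frequent for members (9 of 16 pairs) as over all genes (55.7%), so they are not particular to the members. Some members, picked after their values were seen, were extreme in a type called Pvalb_5 (110 and 99 nuclei). PRKG1 was 1536 and 1737 CPM there and from 127 and 125 CPM in Pvalb_4 to 354 and 498 CPM in Pvalb_6 among the other 5 types. PDE3A was 154 and 122 CPM against at most 79.6 CPM in the others, and ADCY2 was 1141 and 1062 CPM against at most 661 CPM. PDE11A was also highest in Pvalb_5, at 995 and 798 CPM, while Pvalb_4 was lowest at 247 and 205 CPM. PDE10A went the other way, with 383 and 322 CPM in Pvalb_5 and from 798 and 1161 CPM to 1656 and 1949 CPM in the others. For PRKG1, PDE3A, ADCY2, PDE11A and PDE10A, Pvalb_5 did not overlap with any other Pvalb type in either animal, and for PDE7B it was lowest, at 21.03 and 28.5 CPM.

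**Figure D4:**
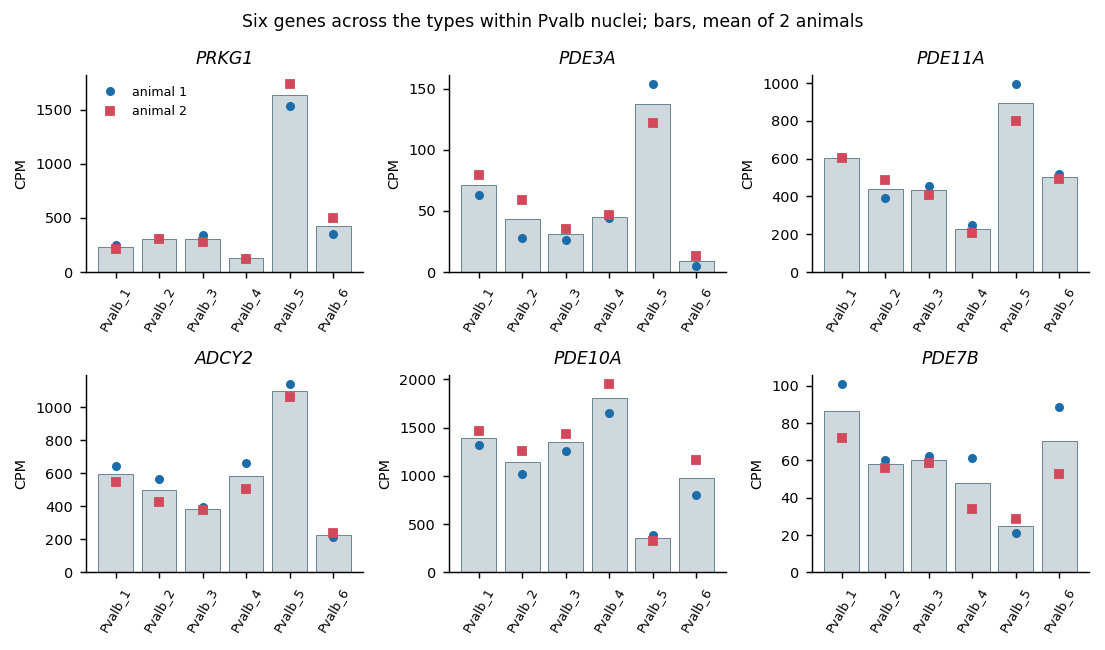
CPM of PRKG1, PDE3A, PDE11A, ADCY2, PDE10A and PDE7B in the 6 Pvalb types. Circles are animal 1, squares animal 2 and bars their mean, and the vertical scale differs between genes; Pvalb_5 is highest for PRKG1, PDE3A, PDE11A and ADCY2 and lowest for PDE10A and PDE7B in both animals.

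In IT_A, type IT_A_5 (499 and 483 nuclei) had 258 and 263 CPM of GUCY1A1 and IT_A_4 (842 and 752 nuclei) 46.98 and 24.8 CPM, with the other 3 types between them. PRKG1 and PDE7B had the same highest and lowest IT_A type as GUCY1A1, at 520.0 and 446 CPM against 219 and 172 CPM for PRKG1. In L6CT the GUCY2C level was highest in L6CT_3, at 44.4 and 31.5 CPM, and at most 24.6 CPM in the others, and PDE11A was highest in the same type, at 306 and 404 CPM. In Sst, PDE11A was 69.6 and 104 CPM in Sst_3 and 6.31 and 2.44 CPM in Sst_1. CREB3L2 in Lamp5 was 67.4 and 81.7 CPM in Lamp5_2 and 12.6 and 25.6 CPM in Lamp5_1.

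The animals were close in the members' levels over all labelled nuclei. Of the 43 members with at least 20 CPM in the higher animal, 0 differed by 1.5-fold or more, where 3.93% of 6571 genes did, and no test was made since each animal is 1 sample. Ratios of animal 2 to animal 1 ran from 0.683 for PDE3A to 1.46 for PRKAR2B, with a median of 0.985. They pool all subclasses, whose shares differed between the animals, such as IT_D with 58 and 315 nuclei. With subclasses weighted equally the ratios were 0.88 for PDE3A and 1.29 for PRKAR2B. PDE3A was higher in animal 2 in 7 subclasses with at least 20 UMIs and lower in 8. For 34 of the 43 the values of the 2 libraries of one animal did not overlap with those of the other, where 81.1% of all genes did not. PRKAR2B was 49.5 and 72.4 CPM over all nuclei and higher in animal 2 in 13 of 16 subclasses with at least 20 UMIs. PRKAR1B was 733 and 627 CPM and lower in animal 2 in 17 of 18 subclasses. PDE4B, below 20 CPM, was 11.1 and 18.6 CPM and higher in animal 2 in 12 of 13 subclasses. These members thus differed in the same direction across most subclasses, but the subclasses of an animal share its libraries and are not independent of each other. No share over all genes is given for such counts. Age and animal cannot be told apart here, and experimenter may differ between the animals as well.

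**Figure D5:**
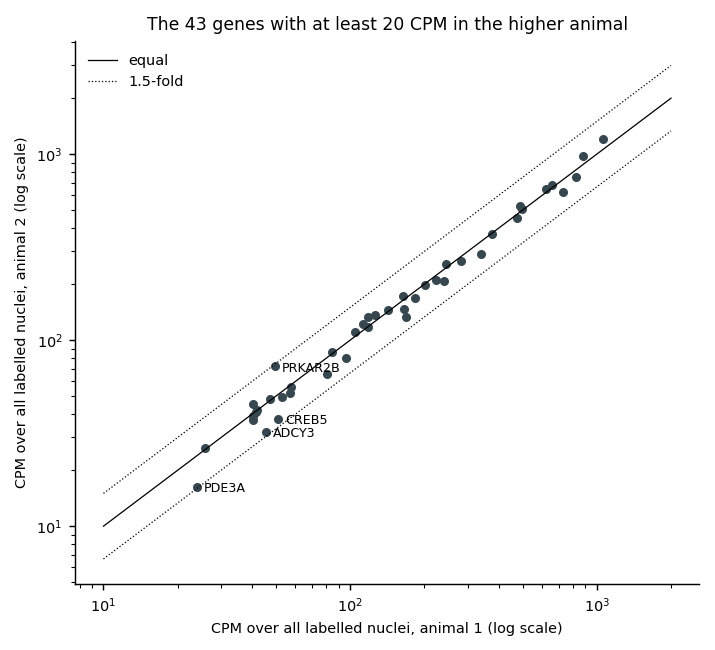
CPM over all labelled nuclei in animal 1 (horizontal) and animal 2 (vertical), both axes on a log scale, for the 43 members with at least 20 CPM in the higher animal. The solid line marks equal values and the dotted lines 1.5-fold; all 43 points lie between the dotted lines, with PDE3A (ratio 0.683) and PRKAR2B (1.46) closest to them.

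Genes that work with the members were taken from a list of 31 partners, of which 26 had a symbol and 25 were tested. Between glutamatergic and GABAergic neurons 6 were higher (20.5% of all genes) and 7 lower in glutamatergic neurons (19.4%), and between neurons and non-neuronal cells 11 were higher (30.2%) and 4 lower in neurons (14.6%). Among glutamatergic subclasses 17 of the 25 differed (37.7% of all genes), among GABAergic 8 (32.1%) and among non-neuronal 18 (61.4%). The largest differences between the neuronal classes belonged to substrates of protein kinase A: ARPP21, a cyclic AMP-regulated phosphoprotein, had a log2 fold change of 3.48 between glutamatergic and GABAergic neurons (SE 0.09, adjusted p = 4.11e-23), and PPP1R1B, which encodes DARPP-32, one of 2.77 (SE 0.35, adjusted p = 1.57e-07). Averaged over the animals, ARPP21 was 406 CPM over glutamatergic and 38.7 CPM over GABAergic subclasses. PPP1R1B was low, at 5.35 and 0.82 CPM, and highest by mean in astrocytes, at 14.5 and 11.7 CPM. Between neurons and non-neuronal cells NOS3, the endothelial nitric oxide synthase, had a log2 fold change of -4.32 (-4.75 less the median, SE 0.89, adjusted p = 0.000236), and did not pass the low-count filter without the Endo sums. NOS3 was 289 and 225 CPM in Endo, the subclass in which GUCY1A1, the subunit of a nitric oxide receptor, was highest too.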

How the data were processed

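Nuclei of V1 from 2 adult male opossums were measured by droplet-based single-nucleus RNA sequencing, with tissue stored for about a year in liquid nitrogen and nuclei sorted by a DNA stain. The authors deposited a raw count matrix of UMIs for each library, made with Cell Ranger (version 6.1.1 in the submitters' processing notes) with introns included, on the ASM229v1 assembly and an Ensembl annotation with lengthened 3′ ends. The deposited metadata held class, subclass and type labels and a Scrublet doublet score, a fraction that the authors computed per nucleus. Nuclei that Scrublet called doublets (798 of 32764) were kept, and dropped in an alternative. For 8 nuclei with subclass L6CT and type L5NP the subclass was used. Nuclei without a subclass were left out of the comparisons.

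The animal is the replicate here, and 36 sums of counts, 1 for each animal and subclass, entered 1 fit with edgeR 4.0.16 in R 4.3.3, with TMM normalization, the low-count filter of filterByExpr, quasi-likelihood tests, and p-values adjusted by Benjamini and Hochberg's method over 17227 genes at 0.05. Contrasts compared the mean of 8 glutamatergic with the mean of 5 GABAergic subclasses and the mean of 13 neuronal with the mean of 5 non-neuronal subclasses, and F-tests compared the subclasses within each class. With 2 animals, p-values measure the spread between these 2. Tables were handled in Python 3.11.15. The fit was tested on simulated counts.

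Members were chosen by symbol, and members and lists were chosen with earlier results of these data known. Values of both animals are given for every tested cyclase, protein kinase A and G subunit and CREB1, CREM or CRTC gene. They are also given for the 6 largest class differences in each direction among called members whose sign was shared by the animals and whose level reached 20 CPM in the higher class of each, for the 20 members with the largest ratio of the highest subclass to the median of the 18, and for the most abundant member of each other family. RAPGEF6, the types and the subclasses named beside a gene were chosen after their values were seen. Alternatives were DESeq2 1.42.0, size factors of the RLE method, no low-count filter, the animal as a block, Scrublet calls removed, at most 50 nuclei per animal and subclass, sums per class, and each animal left out. Leaving out the Endo sums and scaling by number of nuclei or by total UMIs were added after seeing the data. Sums of the same animal are paired by that animal, and correlations of their residuals around the subclass means lay between 0.00345 and 0.597 (median 0.116, 17227 genes). Sequences and positions were not used here.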

Additional observations from a re-analysis of the deposited data

Results flagged for a closer look

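The authors left some nuclei without a subclass because their clusters were ambiguous or doublets, and these enter no comparison above. In the ambiguous GABAergic nuclei of animal 2 (428 nuclei) 42 members had at least 20 UMIs, 5 of them above every labelled value of both animals and 2 of the 5 at least 2-fold above (4.78% and 0.869% of the 6905 genes with as many UMIs). PDE10A was 8054 CPM there, from 8890 UMIs, where the highest labelled value was 2412 CPM, in Endo of animal 1, a ratio of 3.34. ADCY5 was 2204 CPM, from 2433 UMIs, where the highest labelled value was 452 CPM, in IT_D of animal 1, a ratio of 4.87. In the ambiguous GABAergic nuclei of animal 1 (302 nuclei), PDE10A was 762 CPM and ADCY5 185 CPM, within the range of the labelled subclasses. PDE10A and ADCY5 are both known for high levels in the striatum. The other 3 above every labelled value, PRKAR2B (236 CPM), PDE7A (184 CPM) and AKAP5 (30.8 CPM), were at 207, 114 and 37.0 CPM in these nuclei of animal 1. Of the 42, 9 were at least 2-fold higher in animal 2 than in animal 1 (6.69% of genes), and of the 38 members with at least 20 UMIs in animal 1, 2 were at least 2-fold higher there (7.13% of genes), ADCY8 (129.6 and 59.8 CPM) and PDE11A (103 and 33.5 CPM). Beside PDE10A and ADCY5 the 9 were PDE7B (33.9 and 1048 CPM), PDE2A (49.4 and 319.8 CPM), PDE8B (193 and 929.5 CPM), PDE1C (10.8 and 32.6 CPM), GUCY1A1 (27.8 and 82.4 CPM), GUCY1B1 (47.8 and 126.8 CPM) and CREB3L1 (16.97 and 35.3 CPM), all named after their values were seen. Where these nuclei come from was not tested.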

How the results depend on the processing

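Of 67 alternatives to the 8 counts, 63 gave a count within 1.5 times the reported one. With at most 50 nuclei per animal and subclass, 28 of 54 members tested differed between glutamatergic and GABAergic neurons (32.3% of all genes) and 26 among GABAergic subclasses (24.0%), where fewer genes passed the low-count filter. In UMIs per nucleus, 48 of 55 members were highest in a neuronal subclass. From a minimum of 10 CPM, 1 member differed by 1.5-fold between the animals. Leaving out each animal in turn, both class comparisons kept 45 called members with their sign, without a test, and the members highest in a neuronal subclass numbered 22 to 27. With the animal as a replicate block, 45, 45, 52, 49 and 55 members were called in the comparisons of glutamatergic with GABAergic, of neuronal with non-neuronal, and among glutamatergic, GABAergic and non-neuronal subclasses, where 42.8%, 44.7%, 51.8%, 39.0% and 65.1% of all genes were. The block changed no call in the class comparisons.

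Of 636 alternatives to the class differences that the naming rule selected, 592 kept direction and call, 30 lost the call and 14 changed sign, with the cause not tested. Scaled by number of nuclei, 40 of 45 and 37 of 45 called members kept their sign. The sign changed between glutamatergic and GABAergic neurons for PRKACA (0.096), PDE7A (0.19), PDE4D (0.17), AKAP6 (0.073) and AKAP9 (0.033) and between neurons and non-neuronal cells for AKAP10 (1.16), RAPGEF1 (1.04), ADCY7 (0.18), CREB1 (0.88), CREM (0.89), CRTC1 (1.33), GUCY1A1 (0.53) and PDE8A (0.087). Among the selected differences, signs changed with sums per class for PRKAR1A (-0.16) and PRKG2 (0.22) in the former comparison and for ADCY8 (-0.050), CRTC3 (-0.036), GUCY1A1 (0.42) and PRKAR1B (-0.00069) in the latter, and with equal nuclei for GUCY1A1 (0.27). Depth was lowest in Endo, where 1 UMI stood for 20.6 and 17.3 CPM in the 2 animals.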
